A study of Mus musculus with 12 samples.

Results

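The genes described here encode the machinery that copies DNA in S phase: origin licensing factors, the MCM helicase and its activators, the replicative polymerases and primase, the sliding clamp and its loader, and the enzymes that join fragments, supply nucleotides and place histones on new DNA. There were 42 such genes, listed by symbol from their roles, among 53090 gene rows per library. All 42 were found once in every library, and all 42 passed the filter on low counts. Each library holds RNA pulled down with an HA antibody against tagged ribosomes in retinas of C57BL/6 mice, with 6 libraries at postnatal day 3 (P3) and 6 at day 9 (P9). According to the labels the cells were retinal pericytes, a mural cell type on the capillary wall. Both ages received intraperitoneal tamoxifen on days 1 and 2, so the time since tamoxifen was longer at P9 and cannot be told apart from age. The sources used here do not give the driver of the tag or whether a library holds a single animal, and the p-values therefore rest on a spread between libraries that could be technical in part.

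In a cycling cell, the origin recognition complex with CDC6 and CDT1 loads the MCM hexamer onto DNA before S phase, and geminin blocks further loading until the next cycle. The kinase CDC7, MCM10, CDC45 and the GINS complex then turn the loaded hexamer into a moving helicase. Many of these genes are transcribed in late G1 through E2F factors, while others are made in resting cells as well. In the retina around birth, neural progenitors, astrocytes and growing vessels all contain dividing cells.

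Library totals ran from 26840000 to 37776000 expected counts, and a level of 1 CPM (the usual depth-scaled count, here with TMM factors) rested on 25.8 to 38.5 counts in a library. Marker lists show what else the libraries held. None of the 14 mural markers was at 0 in any library, and their summed level was 368 to 1353 CPM at P3 and 2852 to 6402 CPM at P9. The 15 markers of retinal progenitors summed to 1967 to 2314 CPM at P3 and 1448 to 1703 CPM at P9, and 14 of the 15 fell. The 10 rod markers all rose (1468 to 3175 and 8359 to 16645 CPM), and the 10 lens markers all fell (4478 to 11441 and 45.9 to 991 CPM). Of 12 endothelial markers, 7 rose and 1, Kdr, fell, with sums of 907 to 1050 and 737 to 864 CPM. Kdr alone, at a mean of 926 CPM at P3 and 603 CPM at P9, made up most of those sums, so their fall is that of Kdr and not of the list. The 6 astrocyte markers summed to 83.3 to 160.1 and 122 to 208 CPM and the 8 microglia markers to 31.1 to 36.3 and 29.7 to 58.9 CPM. Of the astrocyte markers 3 rose, 1 fell and 2 did not pass, and of the microglia markers 3 rose and 5 did not pass. Pdgfra alone, at a mean of 80.2 CPM at P3 and 91.4 CPM at P9, made up most of the astrocyte sums. No marker of any of these lists was at 0 in a library. The part of these shifts in the results was not tested, and fewer cells of a type and less RNA per cell cannot be told apart here.

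Promoter windows of the genes were searched for short words, and the part of these words in the changes was not tested. RefSeq windows of 300 bases (GRCm38.p6, the assembly that mm10 names; 250 bases before to 50 after the start) were at hand for 34 of the 42 genes, in 40 windows. The E2F-type words searched were TTTCCCGC, TTTCGCGC, TTTGCCGC and TTTGGCGC on both strands, and matches on opposite strands may overlap. They occurred in 12 of the 40 windows (30%), belonging to 12 genes: Cdt1, Cdc6, Orc1, Mcm3, Mcm5, Mcm6, Mcm7, Gins3, Pola1, Pold1, Rfc3 and Lig1. Of all 32851 windows, 2.26% held such a word. Printed below are the MCM windows that held a word, from 4 genes that encode subunits of 1 hexamer. The Mcm2 window and another Mcm7 window held no such word, and Mcm2 fell too (log2 fold change -1.97). The window of Rpa1, the gene whose level went the other way, is also printed. Rpa1 was 1 of 22 genes whose windows held no such word. Sequences run 5′ to 3′ on the gene's strand, and capitals mark the E2F-type words.
Mcm3 (chr1:20820263-20820562, minus strand): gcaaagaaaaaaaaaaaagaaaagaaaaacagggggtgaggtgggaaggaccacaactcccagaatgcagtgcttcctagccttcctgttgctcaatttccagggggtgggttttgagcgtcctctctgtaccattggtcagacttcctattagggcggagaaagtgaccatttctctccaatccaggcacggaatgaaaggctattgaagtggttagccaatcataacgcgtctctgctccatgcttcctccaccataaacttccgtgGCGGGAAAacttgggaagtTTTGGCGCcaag
Mcm5 (chr8:75109259-75109558, plus strand): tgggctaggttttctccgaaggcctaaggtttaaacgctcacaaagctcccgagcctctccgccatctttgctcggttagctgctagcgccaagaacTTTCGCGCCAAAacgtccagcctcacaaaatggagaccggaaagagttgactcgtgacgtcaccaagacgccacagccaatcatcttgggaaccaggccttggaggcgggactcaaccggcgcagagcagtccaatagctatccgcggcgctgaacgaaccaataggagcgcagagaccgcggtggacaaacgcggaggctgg
Mcm6 (chr1:128359656-128359955, minus strand): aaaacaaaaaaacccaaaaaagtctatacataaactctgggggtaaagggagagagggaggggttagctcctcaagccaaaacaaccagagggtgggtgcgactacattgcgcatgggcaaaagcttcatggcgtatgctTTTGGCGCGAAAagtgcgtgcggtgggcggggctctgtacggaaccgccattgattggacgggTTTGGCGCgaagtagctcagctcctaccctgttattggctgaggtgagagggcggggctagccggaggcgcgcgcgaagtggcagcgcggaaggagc
Mcm7 (chr5:138171834-138172133, minus strand): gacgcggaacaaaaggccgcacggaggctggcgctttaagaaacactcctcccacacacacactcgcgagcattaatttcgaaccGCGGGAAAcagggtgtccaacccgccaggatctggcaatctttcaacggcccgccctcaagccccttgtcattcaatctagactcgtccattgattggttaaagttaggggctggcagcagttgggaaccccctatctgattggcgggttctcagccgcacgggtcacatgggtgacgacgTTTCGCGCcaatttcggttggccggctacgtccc
Rpa1 (chr11:75348334-75348633, minus strand): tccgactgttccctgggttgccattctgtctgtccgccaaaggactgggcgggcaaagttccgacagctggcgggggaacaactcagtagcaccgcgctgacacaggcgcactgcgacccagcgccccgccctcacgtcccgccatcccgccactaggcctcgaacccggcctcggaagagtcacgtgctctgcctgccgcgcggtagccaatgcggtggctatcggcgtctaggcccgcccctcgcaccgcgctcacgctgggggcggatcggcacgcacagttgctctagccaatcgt
In Mcm5 and Mcm6 a pair of words on opposite strands overlapped to form 1 longer run. The 12 genes with a word had a median log2 fold change (P9 over P3) of -1.66, and the other 22 genes with a window -0.95. Among all 12248 tested genes with a window, 39.9% of the 526 with a word fell, against 27.2% of the 11722 without. Mcm10, Rrm2 and Chaf1b, whose windows held no such word, had log2 fold changes of -2.55, -2.28 and -2.17. CCAAT (either strand) stood in 24 of the 40 windows, against 37.4% of all windows. TTTGAA (either strand), the CHR-type word, stood in 6 of the 40 windows, against 17.9% of all windows. The median log2 fold change was -1.39 for the 22 genes with CCAAT and -1.27 for the 12 without. For TTTGAA it was -0.61 for the 5 genes with the word and -1.36 for the 29 without. Among all tested genes with a window, 28.6% of those with CCAAT fell, against 27.1% without. For TTTGAA the shares were 29.7% and 27.4%.

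Of the 42 genes, 39 fell at P9, 1 rose and 2 did not pass (edgeR quasi-likelihood test, Benjamini-Hochberg adjusted p under 0.05 over 18638 genes). In the same fit 51.8% of all tested genes changed, 25.6% falling and 26.1% rising. The members' median log2 fold change was -1.31, a 2.48-fold lower level, beside -0.0018 for all tested genes. A fall of at least 2-fold was called for 25 members, against 8.01% of all tested genes. For 35 members every P9 library lay below every P3 library, which held for 15.4% of all tested genes. With Rpa1, 36 members had ages that did not overlap in either direction, against 31.7% of all tested genes. The exceptions were few: Rpa1 rose, and Orc2 and Gins4 did not pass.

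**Figure D1:**
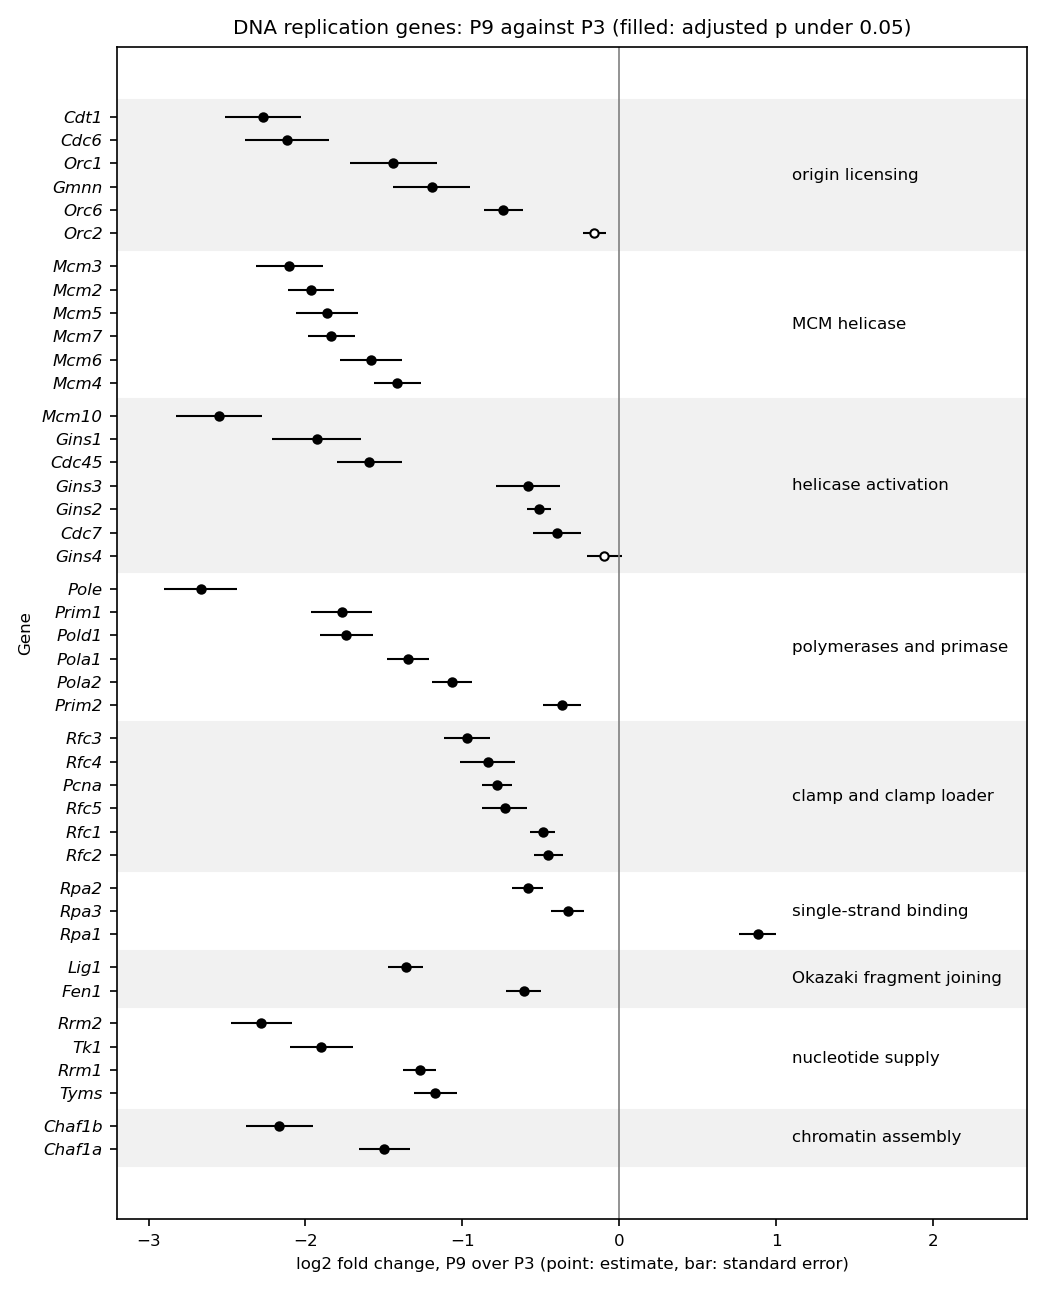
Log2 fold change of P9 over P3 for each of the 42 genes, grouped by role; points are edgeR estimates, bars standard errors, and filled points passed an adjusted p of 0.05. The estimates run from -2.67 for Pole to 0.88 for Rpa1, with the clamp loader genes between -0.97 and -0.45.

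Origin licensing genes fell, apart from the core subunit Orc2. Cdc6 (ENSMUSG00000017499.15, chromosome 11, 98907709 to 98923942 in mm10), the ATPase that joins the origin complex to load the helicase, stood at 7.42, 15.7 and 20.5 CPM (lowest, median and highest of 6 libraries) at P3 and 1.96, 3.70 and 4.37 CPM at P9. The ages did not overlap, and the difference was 4.34-fold (log2 fold change -2.12 ± 0.27, SE; adjusted p = 1.29e-05). Cdt1 (ENSMUSG00000006585.3, chromosome 8, 122568015 to 122573130), its partner in loading, stood at 18.5, 25.8 and 44.6 CPM at P3 and 3.57, 5.68 and 8.53 CPM at P9, again without overlap (log2 fold change -2.27 ± 0.24, SE; adjusted p = 2.23e-06). Gmnn, which encodes the geminin that binds and inhibits CDT1, fell less, from 7.65 ± 1.63 to 3.33 ± 1.30 CPM (mean ± SD, n = 6 per age). Within a library the Cdt1 to Gmnn ratio was 2.04-fold lower at P9 (exact permutation test over libraries, two-sided, adjusted p = 0.00397 over 22 pairs). Of the origin recognition complex, Orc1, the subunit known to be degraded and remade each cell cycle, fell 2.71-fold, from 2.44, 4.63 and 6.32 CPM to 1.18, 1.51 and 2.31 CPM. Its span overlaps that of Prpf38a, at 38.9 and 41.1 CPM, by 3632 bases, so its own reads are uncertain if strands were not separated. Orc6 fell 1.67-fold from 40.0 ± 7.12 CPM. Orc2 (ENSMUSG00000026037.14, chromosome 1, 58462771 to 58505113), a subunit that stays bound to origins, stood at 32.9, 36.6 and 38.8 CPM at P3 and 28.6, 33.3 and 35.9 CPM at P9. Its ages overlapped and it did not pass (log2 fold change -0.16 ± 0.073, SE; adjusted p = 0.081); without P3 replicate 6 it did (adjusted p = 0.0458). The Orc1 to Orc2 ratio was 2.04-fold lower at P9 (exact permutation adjusted p = 0.0068), and that of Orc6 to Orc2 1.48-fold lower (adjusted p = 0.0127).

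All 6 subunits of the MCM helicase, the ring that unwinds the double helix, fell without overlap between the ages. Mcm7 (ENSMUSG00000029730.16, chromosome 5, 138164583 to 138172111) stood at 149, 195 and 243 CPM at P3 and 40.2, 52.8 and 70.7 CPM at P9. Its lowest P3 library was thus above its highest P9 library by more than the range within P9 (log2 fold change -1.84 ± 0.15, SE; adjusted p = 2.26e-07). Mcm2 (ENSMUSG00000002870.8, chromosome 6, 88883474 to 88898780) stood at 62.5, 71.1 and 84.6 CPM at P3 and 13.3, 19.0 and 25.7 CPM at P9 (log2 fold change -1.97 ± 0.15, SE; adjusted p = 1.19e-07). The falls of the 6 genes ran from 2.67-fold for Mcm4 to 4.29-fold for Mcm3, with a median of 3.60-fold. Mcm5 and Mcm6 were 3.64-fold and 3.00-fold lower. Their ratio did not differ past the threshold between the ages (log2 difference -0.24; exact permutation adjusted p = 0.0727), although it did without P9 replicate 5 (adjusted p = 0.0238).

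The genes that activate the loaded helicase ran from the strongly lowered Mcm10 to Gins4, which did not pass. Mcm10 (ENSMUSG00000026669.14, chromosome 2, 4990724 to 5012791), needed to start unwinding, stood at 12.2, 19.2 and 26.7 CPM at P3 and 1.73, 3.26 and 5.27 CPM at P9, a 5.86-fold fall without overlap (log2 fold change -2.55 ± 0.28, SE; adjusted p = 2.81e-06). Cdc45, which travels with the helicase, fell 3.02-fold from 15.5 ± 3.77 CPM, and Gins1 3.81-fold from 8.13 ± 2.41 CPM. The other GINS subunits, which form a tetramer with the first, had smaller fold changes. Gins2 fell 1.42-fold, from 98.9 ± 8.96 to 69.5 ± 5.24 CPM, and Gins3 1.49-fold with overlapping ages. Gins4 (ENSMUSG00000031546.6, chromosome 8, 23226610 to 23237668) stood at 11.2, 12.7 and 15.7 CPM at P3 and 10.3, 11.9 and 13.6 CPM at P9 and did not pass (log2 fold change -0.095 ± 0.11, SE; adjusted p = 0.502). The Cdc45 to Gins4 ratio was 2.68-fold lower at P9 (exact permutation adjusted p = 0.00397). Cdc7, the kinase that phosphorylates MCM proteins to fire origins, fell 1.32-fold with overlapping ages (59.9 to 124 CPM at P3 and 60.6 to 79.8 CPM at P9; adjusted p = 0.04), and the Cdc6 to Cdc7 ratio was 2.96-fold lower at P9 (exact permutation adjusted p = 0.00397). The call for Cdc7 was lost without any 1 of P3 replicates 1, 2, 3 and 6 and P9 replicates 1, 2, 3, 5 and 6 (adjusted p from 0.0613 to 0.105), and that of Gins3 (adjusted p = 0.027) without P3 replicate 1, 2 or 6 or P9 replicate 5 or 6 (0.0523 to 0.0618). The Mcm10 to Mcm2 ratio was 1.36-fold lower at P9 (exact permutation adjusted p = 0.0308), a call lost without any 1 of P3 replicates 1, 2, 3 and 6 and P9 replicates 4, 5 and 6 (0.0504 to 0.0588).

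**Figure D2:**
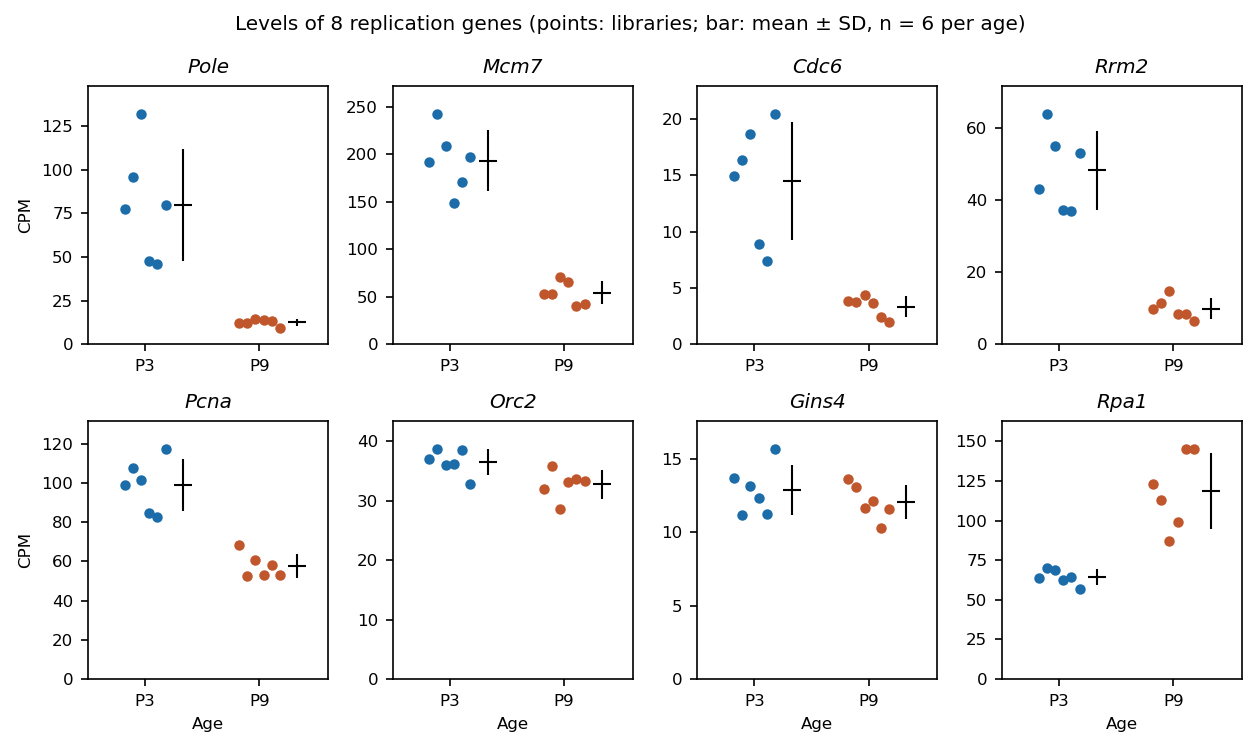
CPM of 8 genes in each of the 12 libraries (points), with mean ± SD of 6 libraries per age (bars), on axes that start at 0. Pole, Mcm7, Cdc6, Rrm2 and Pcna lie lower at P9 without overlap, Orc2 and Gins4 overlap between the ages, and Rpa1 lies higher at P9 in all 6 libraries.

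All 6 genes of the replicative polymerases and primase among the 42 fell. Pole (ENSMUSG00000007080.14, chromosome 5, 110286319 to 110337468), the catalytic subunit of the leading-strand polymerase epsilon, had the largest fall of the 42 genes. It stood at 46.2, 78.6 and 132 CPM at P3 and 9.30, 12.9 and 14.5 CPM at P9. The spread at P3 was wide, but every P3 library was above every P9 library (log2 fold change -2.67 ± 0.23, SE; adjusted p = 3.81e-07). Pold1, the catalytic subunit of the lagging-strand polymerase delta, fell 3.34-fold from 79.5 ± 19.9 to 23.8 ± 4.51 CPM. The Pole to Pold1 ratio was 1.79-fold lower at P9 (exact permutation adjusted p = 0.00397). Primase lays down RNA primers for polymerase alpha. Its catalytic subunit gene Prim1 fell 3.41-fold, from a median of 47.5 CPM to one of 13.7 CPM, whereas Prim2, the large subunit, fell 1.29-fold from 18.5 ± 2.38 to 14.4 ± 2.26 CPM with overlapping ages (adjusted p = 0.0198), a call lost without P3 replicate 2 (0.0509). Their ratio was 2.50-fold lower at P9 (exact permutation adjusted p = 0.00397). Pola1 and Pola2, the catalytic and accessory subunits of polymerase alpha, fell 2.54-fold and 2.09-fold. The ratio of these 2 did not differ past the threshold (log2 difference -0.28; exact permutation adjusted p = 0.0952), but did without P3 replicate 1 (0.0336). Further subunit genes of polymerases delta and epsilon, outside the 42, were mixed. Pold4 and Pole4 did not pass (log2 fold change 0.41 and 0.039). Pole2 fell 3.78-fold, Pold3 1.48-fold, Pole3 1.44-fold and Pold2 1.38-fold.

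The sliding clamp and all 5 genes of its loader fell, by less than 2-fold each. Pcna (ENSMUSG00000027342.14, chromosome 2, 132249286 to 132253180), the ring that holds polymerases on DNA, stood at 82.6, 100.3 and 118 CPM at P3 and 52.7, 55.6 and 68.2 CPM at P9. The ages did not overlap, and the fall was 1.72-fold (log2 fold change -0.78 ± 0.098, SE; adjusted p = 1.21e-05). The 5 subunits of replication factor C, which opens the clamp and loads it, fell between 1.37-fold (Rfc2) and 1.96-fold (Rfc3). The large subunit Rfc1 fell (log2 fold change -0.49) from 115 ± 12.8 to 82.1 ± 4.40 CPM. The Rfc3 to Rfc1 ratio was 1.38-fold lower at P9 (exact permutation adjusted p = 0.0179), while that of Rfc4 to Rfc2 did not differ past the threshold (log2 difference -0.35; adjusted p = 0.12). The Pcna to Rfc1 ratio was 1.22-fold lower (exact permutation adjusted p = 0.0397), a call lost without any 1 of P3 replicates 1, 2, 4, 5 and 6 and P9 replicates 2, 4, 5 and 6 (0.0503 to 0.082). The span of Rfc4 overlaps that of Eif4a2, at 653 and 501 CPM, by 185 bases. In all, 9 of the 42 genes overlap the span of another protein-coding gene, and no source used here gives the strand setting of the counting, so reads in the shared stretches are uncertain. Besides Orc1, Rfc4 and Rpa1 these are Mcm7 (with Ap4m1, 91 bases), Gins2 (Gse1, 118), Cdc45 (Ufd1, 237), Fen1 (Tmem258, 192), Tk1 (Afmid, 585) and Chaf1a (Ubxn6, 982). Gse1 fell too, from 443 to 253 CPM, as did Ap4m1 (164 to 77.1 CPM) and Afmid (10.1 to 5.14 CPM), while Ubxn6 stood at 138 and 132 CPM and did not pass.

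The subunits of replication protein A, the trimer that coats single-stranded DNA in replication and repair, went in opposite directions. Rpa1 (ENSMUSG00000000751.13, chromosome 11, 75300259 to 75348454), the large DNA-binding subunit, stood at 56.7, 64.0 and 70.1 CPM at P3 and 87.1, 118 and 145 CPM at P9. All 6 P9 libraries were above all 6 P3 libraries, and the rise was 1.84-fold (log2 fold change 0.88 ± 0.12, SE; adjusted p = 2.20e-05). Rpa2 fell (log2 fold change -0.58) from 22.1 ± 3.03 to 14.8 ± 0.740 CPM and Rpa3 1.26-fold from 16.5 ± 1.35 to 13.1 ± 1.61 CPM (mean ± SD, n = 6 per age). The Rpa2 to Rpa1 ratio was 2.66-fold lower at P9 and the Rpa3 to Rpa1 ratio 2.26-fold lower (exact permutation adjusted p = 0.00397 for each). Rpa2 and Rpa1 changed in opposite directions, each without overlap, so the separation of their ratio follows from those changes. Within P9 the libraries ordered by Rpa1 (87.1, 98.9, 112.8, 123, 145.1 and 145.4 CPM for replicates 3, 4, 2, 1, 5 and 6) came in the same order by summed rod markers (8359, 9692, 11790, 13776, 16377 and 16645 CPM). That order was looked at after the values were seen, and it did not hold within P3, where Rpa1 was lowest in replicate 6 and the rod sum in replicate 3. The summed microglia markers at P9 ran nearly the same way (29.7, 33.3, 43.3, 40.4, 47.6 and 58.9 CPM for replicates 3, 4, 2, 1, 5 and 6). How many other genes share the order was not counted. The part of rod transcripts in the rise was not tested. Smyd4, whose span overlaps that of Rpa1 by 22 bases, stood at 11.5 CPM at P3 and 12.5 CPM at P9.

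Genes that finish lagging-strand fragments fell unequally. Lig1 (ENSMUSG00000056394.17, chromosome 7, 13277175 to 13311426), the ligase that seals the fragments, stood at 74.2, 93.8 and 122 CPM at P3 and 34.8, 38.4 and 42.6 CPM at P9. That is a 2.57-fold fall without overlap (log2 fold change -1.36 ± 0.11, SE; adjusted p = 2.70e-07). Fen1, the nuclease that trims their flaps, fell 1.53-fold from 20.9 ± 2.40 to 13.7 ± 1.87 CPM. The Fen1 to Lig1 ratio was therefore higher at P9, by 1.67-fold (exact permutation adjusted p = 0.0068).

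All 4 nucleotide supply genes fell, and for Rrm2 and Tk1 the ratio to a relative used outside S phase was lower at P9. Rrm2 (ENSMUSG00000020649.11, chromosome 12, 24708254 to 24714146), the S-phase small subunit of ribonucleotide reductase, stood at 37.1, 48.2 and 64.1 CPM at P3 and 6.55, 9.14 and 14.9 CPM at P9, a 4.86-fold fall without overlap (log2 fold change -2.28 ± 0.20, SE; adjusted p = 3.36e-07). Its partner Rrm1, the large subunit, fell 2.41-fold from 137 ± 18.8 CPM, and the Rrm2 to Rrm1 ratio was 1.97-fold lower (exact permutation adjusted p = 0.00397). Rrm2b, which encodes the alternative small subunit used outside S phase and is not among the 42, stood at 8.92, 12.3 and 14.4 CPM at P3 and 14.8, 19.2 and 22.3 CPM at P9, a 1.57-fold rise without overlap (edgeR adjusted p = 0.000572). The Rrm2 to Rrm2b ratio was 7.38-fold lower at P9, the largest shift of the 22 pairs: its log2 value was 1.35 to 2.78 in the P3 libraries and -1.45 to 0.010 in those of P9. Since Rrm2 fell and Rrm2b rose, each without overlap, the separation of their ratio follows from those 2 changes. Tk1, the cytosolic thymidine kinase of S phase, fell 3.73-fold from 32.9 ± 8.99 to 8.78 ± 2.14 CPM. Tk2, its mitochondrial counterpart, fell 1.15-fold (adjusted p = 0.0397), a call lost without P3 replicate 1 or 4 or P9 replicate 1, 2, 4 or 5 (0.0564 to 0.102). The Tk1 to Tk2 ratio was 3.10-fold lower at P9 (exact permutation adjusted p = 0.00397). Tyms, which makes thymidylate, fell 2.25-fold, less than Tk1 (ratio 1.62-fold lower, exact permutation adjusted p = 0.00397).

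Both large subunits of chromatin assembly factor 1, which places histones on newly copied DNA, fell without overlap. Chaf1b went from 18.2 ± 4.55 to 4.04 ± 1.13 CPM, 4.49-fold, and Chaf1a from 39.9 ± 10.5 to 14.1 ± 1.81 CPM, 2.83-fold (mean ± SD, n = 6 per age). The Chaf1a to Chaf1b ratio was 1.53-fold higher at P9 (exact permutation adjusted p = 0.00397). Of the 22 pairs in all, 18 passed, and for 12 of them the p was the smallest that the 924 assignments of libraries can give (0.00216 before adjustment). The share of other gene pairs that would pass was not computed. In the edgeR fit 51.8% of all tested genes changed, so ratios of unrelated genes may pass as well.

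**Figure D3:**
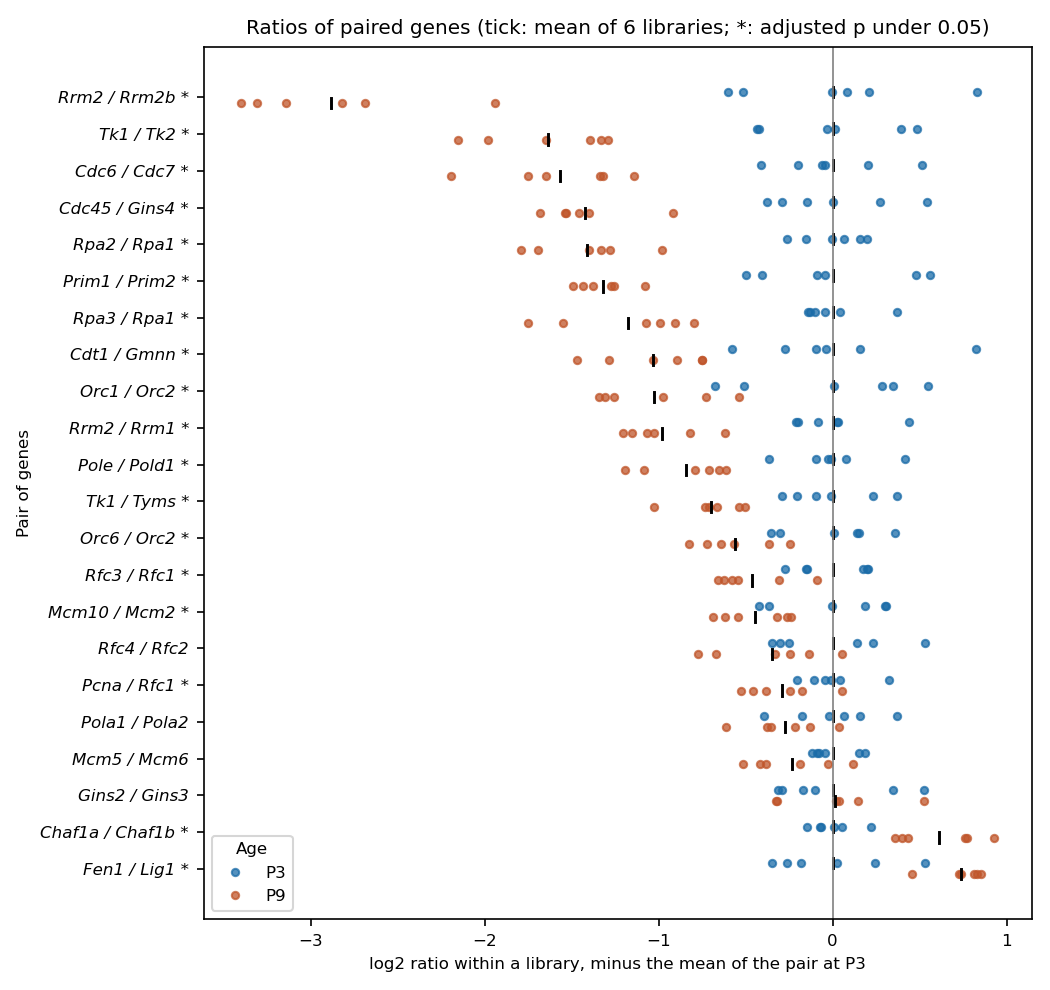
Log2 ratio of 2 genes within each library, minus that pair's mean at P3, for 22 pairs; points are libraries (P3 blue, P9 orange), ticks the means of 6 libraries, and asterisks mark adjusted p under 0.05 (exact permutation). Rrm2 over Rrm2b shifts most, by -2.88, and Gins2 over Gins3 least, by 0.014.

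A further 46 genes of replication that are not among the 42 changed in the same direction in most cases. Of these, 37 fell, 2 rose and 7 did not pass, where 25.6% of all tested genes fell and 26.1% rose. The median log2 fold change of the 46 was -0.71, beside -0.0018 for all tested genes. Among the 46, the 3 with the smallest adjusted p were Clspn, Ticrr and Dbf4. Clspn, which encodes the fork checkpoint mediator claspin, fell 6.64-fold from 41.0 ± 11.5 CPM, and Ticrr, the factor that brings CDC45 to origins, 13.3-fold from 38.0 ± 19.0 to 2.85 ± 0.582 CPM. Dbf4, the activating subunit of the CDC7 kinase, fell 4.58-fold from 44.2 ± 13.4 to 9.65 ± 1.51 CPM, beside the 1.32-fold fall of Cdc7. The 2 genes that rose were Rrm2b and Nme1, a nucleoside diphosphate kinase that acts outside S phase too (23.9 ± 5.08 to 40.1 ± 7.32 CPM).

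Levels of the 42 genes varied between libraries of an age, in a shared pattern at P3. The summed CPM of the 42 was 2150, 2449, 2545, 1726, 1768 and 2177 for P3 replicates 1 to 6, against 960 to 1132 at P9, a 2.05-fold lower mean. Replicates 4 and 5 were thus the lowest at P3, though above every P9 library. They were the 2 lowest P3 libraries for 31 of the 42 genes. The same 2 libraries had the highest summed mural markers of P3 (1226 and 1353 CPM, against 368 to 690 in the others) and the highest summed rod markers (3175 and 2936 CPM, against 1468 to 1972). Their summed progenitor markers, 1968 and 2022 CPM, lay near that of replicate 6 (1967 CPM). Gins2 went against this pattern, with its highest P3 level in replicate 5. Without replicates 4 and 5, 39 of the 42 genes fell and the median log2 fold change was -1.40. At P9, replicates 5 and 6 were the 2 lowest libraries for 20 of the 42 genes; without them 35 fell. The coefficient of variation over 6 libraries had a median of 19.1% at P3 and 17.2% at P9 over the 42 genes, and at P3 ran from 5.92% for Orc2 to 40.2% for Pole.

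**Figure D4:**
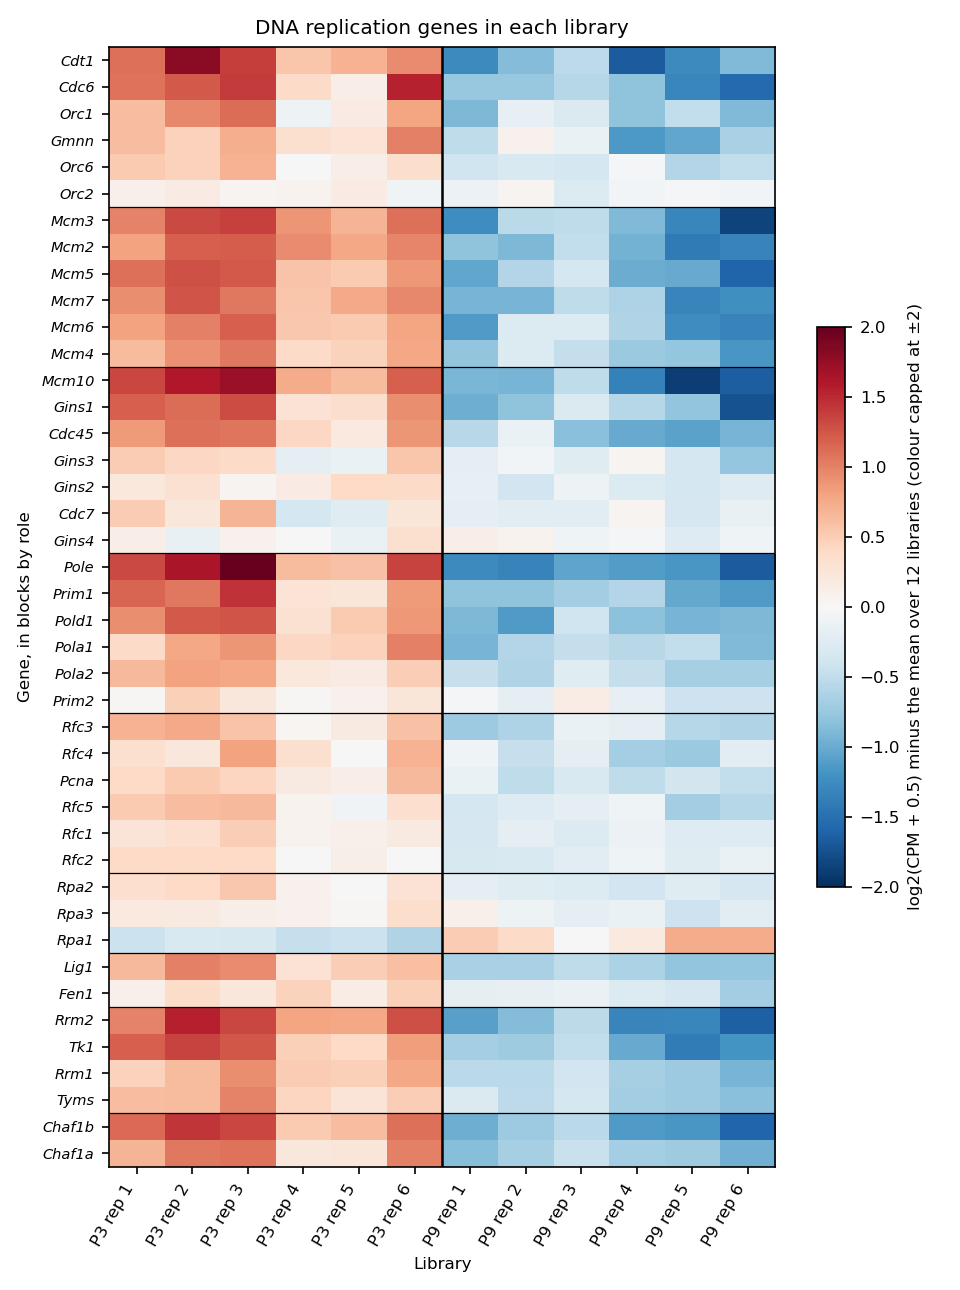
Level of each of the 42 genes in each library, as log2(CPM + 0.5) minus the gene's mean over the 12 libraries, with genes in blocks by role. Most rows are red in the 6 P3 columns, paler in P3 replicates 4 and 5, and blue in the 6 P9 columns, while Rpa1 runs the other way.

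**Figure D5:**
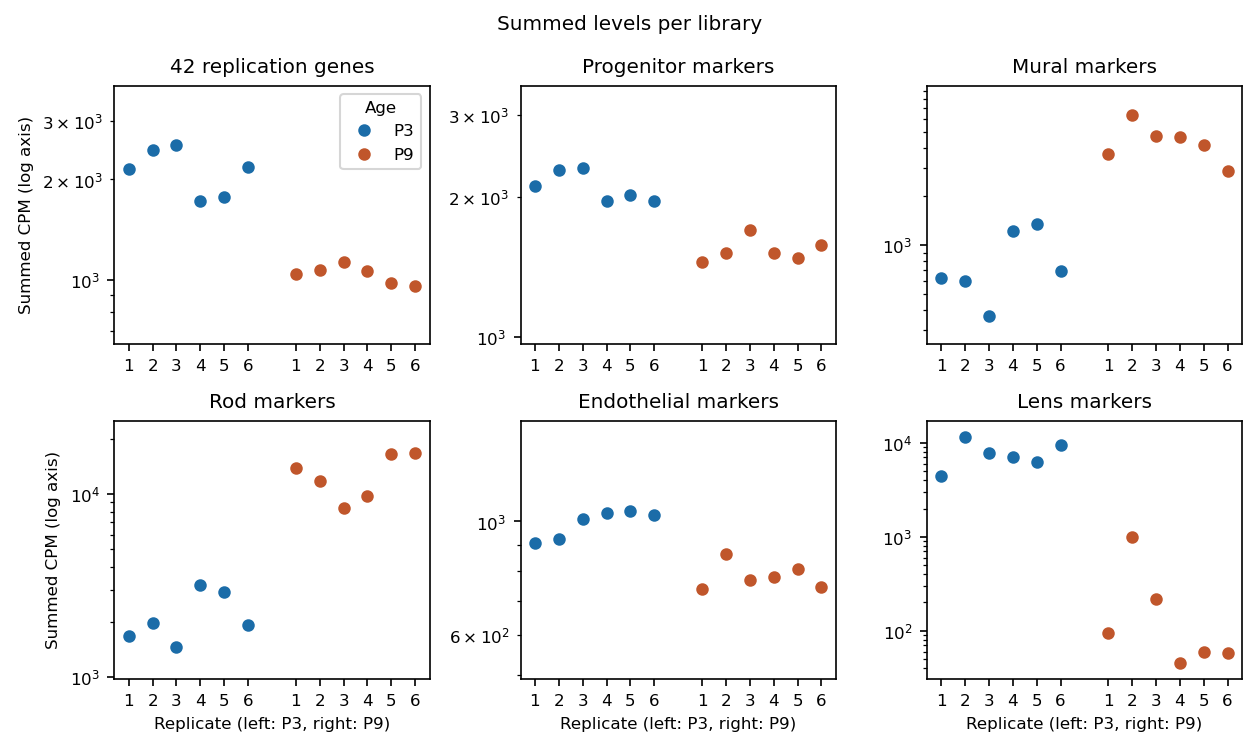
Summed CPM per library (log axis, which differs between panels) of the 42 replication genes and of 5 marker lists, for replicates 1 to 6 of each age. P3 replicates 4 and 5 are lowest for the replication genes and highest for the mural and rod markers among P3 libraries.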

How the data were processed

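RNA from HA immunoprecipitates was sequenced in 12 libraries, 6 per age. The authors deposited RSEM expected counts per gene, 1 table per library, not scaled to depth. The submitters' processing notes list Trim Galore, FastQC, STAR, RSEM, limma and the mm10 build. Versions, annotation and strand setting were not given in the sources used here. Groups came from the age in the labels, which give no replicate numbers. The replicate numbers used here follow the order of the samples within each age. The names of P9 replicates 5 and 6 are crossed between title and file, and both are P9.

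Expected counts were rounded to whole numbers, 34452 of 53090 rows were removed by filterByExpr, and 18638 genes were tested with edgeR 4.0.16 in R 4.3.3 (TMM factors, quasi-likelihood test, Benjamini-Hochberg, threshold 0.05). A standard error is the log2 fold change over the square root of F. Ratios of paired genes used log2 of CPM plus 0.5 and an exact two-sided permutation test over libraries, adjusted over 22 pairs. The scripts were tested on simulated data. The 42 genes, the other lists, the pairs and the motifs were chosen with earlier results of these data known. Some single genes outside the 42 were named as the 3 with the smallest adjusted p in each direction (only 2 rose). Others were named as members of a pair, or where they share a span with a member or stand out in a marker list. Further subunits of the origin recognition complex and of polymerases delta and epsilon were named as well. Coordinates and promoters are RefSeq's on GRCm38.p6. The result of 1 marker gene is not reported here. Without transcript lengths, levels were not compared between genes. Alternatives were other scaling factors, filters and tools (DESeq2 1.42.0, limma-voom of limma 3.58.1, a robust fit), adjusted p under 0.01, other pseudocounts, a mean of log2 values in place of the summed CPM, and leaving out libraries.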

Additional observations from a re-analysis of the deposited data

Results flagged for a closer look

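In 130 groups of 6 libraries (each of the 42 genes, their sum and the 22 ratios at each age), 5 held 1 library far from the others by a gap test that flags about 1 in 20 groups by chance. Pold1 stood at 32.4 CPM in P9 replicate 3, with the next library at 23.8 CPM. The log2 ratio of Cdc45 over Gins4 was -0.68 in P9 replicate 2, next -1.17, and that of Rpa3 over Rpa1 was -1.57 in P3 replicate 6, next -1.89. The log2 ratio of Fen1 over Lig1 was -1.72 in P9 replicate 6, next -1.46, and that of Rrm2 over Rrm1 was -1.08 in P3 replicate 2, next -1.49. Each of these 5 results kept its call without the library named.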

How the results depend on the processing

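The number of the 42 genes that fell ran from 33 to 39 over 24 alternatives, lowest where genes under a mean of 10 CPM were left out and 36 of the 42 were tested, and from 36 to 39 without any 1 library; 1 gene, Rpa1, rose in each. Of the other 46 genes 32 to 39 fell. Calls changed for Cdc7, Gins3, Prim2, Rpa3, Orc2 and Tk2 in at least 1 alternative. Of the 22 ratios, 16 to 18 passed. The ratio of Gins2 over Gins3, which did not pass (log2 difference 0.014, adjusted p = 0.978), changed sign with a pseudocount of 2 CPM (-0.095) and ran from -0.088 to 0.12 without 1 library; the cause was not tested. Mcm10 over Mcm2 lost its call at that pseudocount (-0.12, adjusted p = 0.363). Orc1 and Gins1 had the lowest P9 levels of the 42 genes, with medians of 1.51 and 2.14 CPM. No paired analysis was possible because nothing in the labels links a P3 library to a P9 library.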
